A study of Macaca fascicularis with 34 samples.

Results

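The germ cells of cynomolgus monkey (Macaca fascicularis) embryos at embryonic day 16 (E16) were chosen by their APOA1 level and divided by how much MKI67 transcript each held. MKI67 encodes the Ki-67 protein, which coats chromosomes in mitosis and marks cycling cells. Of the 34 single cells of the study, 11 came from E16, and 10 of these held under 100 RPM (reads of a gene scaled to a common library size) of APOA1, an apolipoprotein of visceral endoderm, and were taken as germ cells. Among the 10, the 7 with at least 15 RPM of MKI67 are called MKI67-high here and the 3 below it MKI67-low. Both groups share the stage, the subspecies label fascicularis and embryo as the tissue. No treatment, genotype or sex is named, and all 11 labels carry 1 common code. Each cell was amplified and sequenced singly by SC3-seq, a method that reads the 3′ ends of transcripts, and no animal is named. The cells of E16 therefore count as 1 sample, and no difference between the groups was tested. The other 23 cells were 14 from embryos at E13, E14, E17 and E20 and 9 from gonads at E36, E47 and E55.

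A cell that divides copies its DNA in S phase and parts the copies in mitosis. Each step uses its own set of transcripts. Replication factors such as the MCM helicase and PCNA are made around the entry to S phase. Cyclin B, the Aurora and Polo kinases and the motors of the spindle accumulate in G2 and mitosis under factors such as FOXM1 and the MuvB complex, and most of them are cleared in G1. Primordial germ cells, from which eggs or sperm later arise, divide while they migrate to the gonad and keep a transcription factor network that includes SOX17, TFAP2C, PRDM1, NANOG and POU5F1.

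The 3 MKI67-low cells held almost no MKI67 transcript. Cell 1 held 0.737 RPM (2 reads), cell 7 held 0.423 RPM (1 read) and cell 2 held 0 reads. The 7 MKI67-high cells ran from 23.1 RPM in cell 11 (52 reads) and 34.4 RPM in cell 10 (74 reads) through a median of 228 RPM to 387 RPM in cell 4 (936 reads). These values chose the groups and are a description only. No cell lay between 0.737 and 23.1 RPM. Summed over cells, MKI67 reached 219 RPM in the high group (3906 reads) and 0.43 RPM in the low group (3 reads, exact 95% Poisson interval 0.09 to 1.25, which covers counting error only).

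The reads behind each cell, recovered from the spacing of its lowest values, ranged from 1933056 to 3556607 in the MKI67-high cells and from 1959925 to 2714078 in the MKI67-low cells. The high cells held 6469 to 6951 genes at 15 RPM or more and the low cells 6171 to 6636. Pearson's r between pairs of cells across genes ranged from 0.784 (cells 2 and 7) to 0.870 (cells 10 and 11), so no pair looked like a repeat of 1 library. The summed level of 8 germ cell markers was 4049 to 9426 RPM in the high cells (median 7490) and 6098 to 8632 RPM in the low cells (median 7465). It was 1462 RPM in cell 8, the E16 cell left out, whose APOA1 stood at 1430 RPM against 0 to 0.835 RPM in the 10 members.

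Differences below are means of log2(RPM + 1) over the 7 MKI67-high cells minus the means over the 3 MKI67-low cells. A difference of 1 is about 2-fold in RPM for genes well above 1 RPM in every cell and more than 2-fold for rare ones. Cells near 0 weigh heavily in a mean of logs, so a difference can exceed the ratio of mean RPM. NCAPG differed by 4.67 on the log2 scale, while its mean RPM was 4.83-fold higher (174 against 36.1 RPM). Below, at least 2-fold means a difference of 1 or more on this scale. A gene counts as measured where its mean is at least 1 RPM in either group. Over all 13685 measured genes the median difference was 0.12. Of these genes 20.7% were at least 2-fold higher in the MKI67-high cells and 15.7% at least 2-fold lower. Only 1.08% lay above every low cell in all 7 high cells, and 0.95% lay below every low cell in all 7. These 4 shares are the background beside which the counts of each gene group are given. As the groups were split by MKI67, genes that vary together with it differ by construction.

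Genes of mitosis made up the difference that ran through whole gene groups. Of 109 measured genes for mitotic entry, chromosome structure, kinetochore, spindle and cytokinesis, 83 (76.1%) were at least 2-fold higher in the MKI67-high cells, 2 were at least 2-fold lower and 24 were within 2-fold. Their median difference was 1.77, and 19 of them separated the groups without overlap. Of the 315 measured genes of the lists outside the cell cycle, 60 (19.0%) were at least 2-fold higher and 33 (10.5%) lower.

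**Figure D1:**
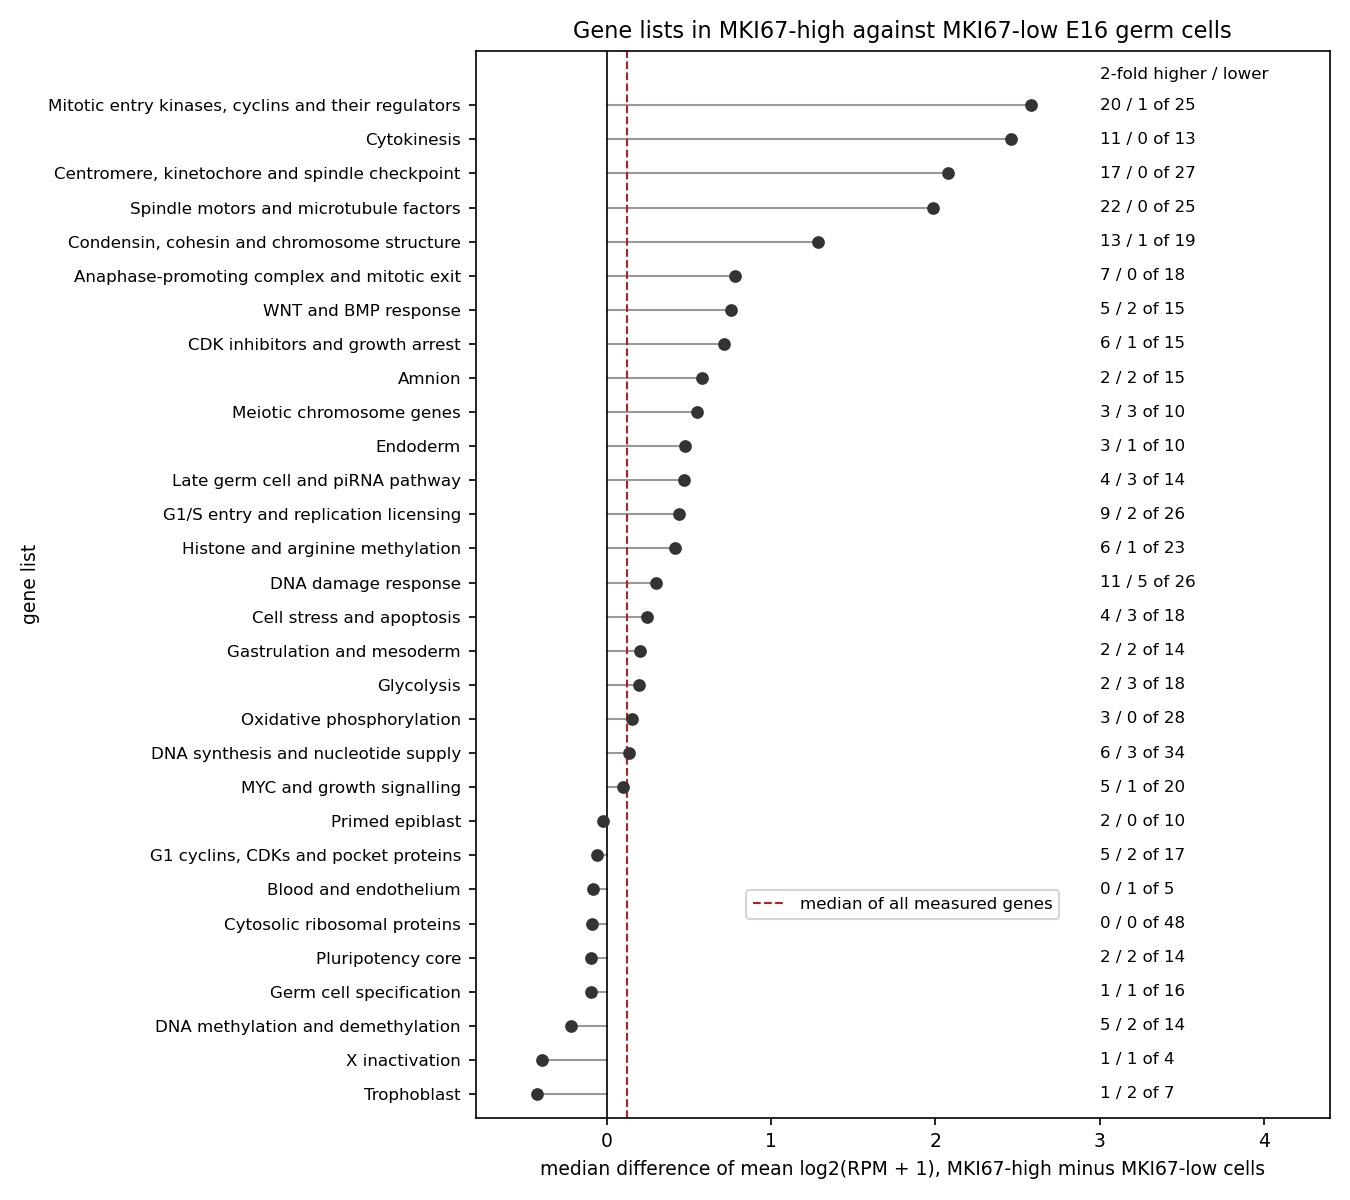
Median difference of mean log2(RPM + 1), MKI67-high minus MKI67-low cells, for each of 30 gene lists (points), with the counts of measured genes at least 2-fold higher and lower at the right. The dashed line is the median of all measured genes, 0.12, and the 5 lists of mitotic genes stand at 1.28 to 2.58, above every other list.

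The kinases and cyclins that start mitosis stood highest as a list, with a median difference of 2.58 and 20 of 25 genes at least 2-fold higher. CDK1, the kinase that drives entry into mitosis, was at 19.9, 49.5 and 48.6 RPM in the low cells 1, 2 and 7 and at 41.8 to 316 RPM (median 90.1) in the high cells. Its difference was 1.39 and the groups overlapped, since cell 11 had less CDK1 than cells 2 and 7. Its partner CCNB1 (cyclin B1) was at 49.7, 8.16 and 75.6 RPM in the low cells and at 46 to 1031 RPM (median 303) in the high cells, a difference of 2.58. Cells 6, 10 and 11 had CCNB1 inside the range of the low cells, and cells 3, 4, 5 and 9 had at least 303 RPM. Without low cell 2 the difference of CCNB1 was 1.66.

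CCNB2 showed a wider gap, at 0.368, 9.18 and 19.4 RPM in the low cells and 8.45 to 524 RPM (median 202) in the high cells (difference 4.04). Only cells 11 and 10 lay near the low cells. CCNA2 (cyclin A2), which acts from S phase on, differed less, by 1.36: low cell 7 held 198 RPM of it, above 5 of the 7 high cells. That difference was 2.38 without cell 7 and 0.69 without cell 2.

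FOXM1, the transcription factor that drives many G2 and mitotic genes, was at 0, 6.12 and 0 RPM in the low cells and at 8.45 to 134 RPM (median 48.8) in the high cells. All 7 high cells were above the low cells (difference 4.39). CKS2, a small CDK-binding subunit, separated the groups as well, with 15.5, 27.6 and 41.0 RPM against 72.9 to 647 RPM (median 264, difference 3.19). These were the only 2 genes of the list without overlap.

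The Polo kinase PLK1 was at 0.737, 2.04 and 15.2 RPM in the low cells and 2.07 to 428 RPM (median 164) in the high cells. Its difference of 4.30 left 1 high cell behind, cell 6. AURKA, the Aurora kinase of spindle poles, was at 19.2, 0 and 0 RPM against 15.5 to 376 RPM (median 137, difference 5.02), again with cell 6 lowest among the high cells. CDC25B, a phosphatase that activates CDK1, went the other way at −1.12, with the groups overlapping, and stood at −0.39 without cell 4 and −0.66 without cell 7.

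**Figure D2:**
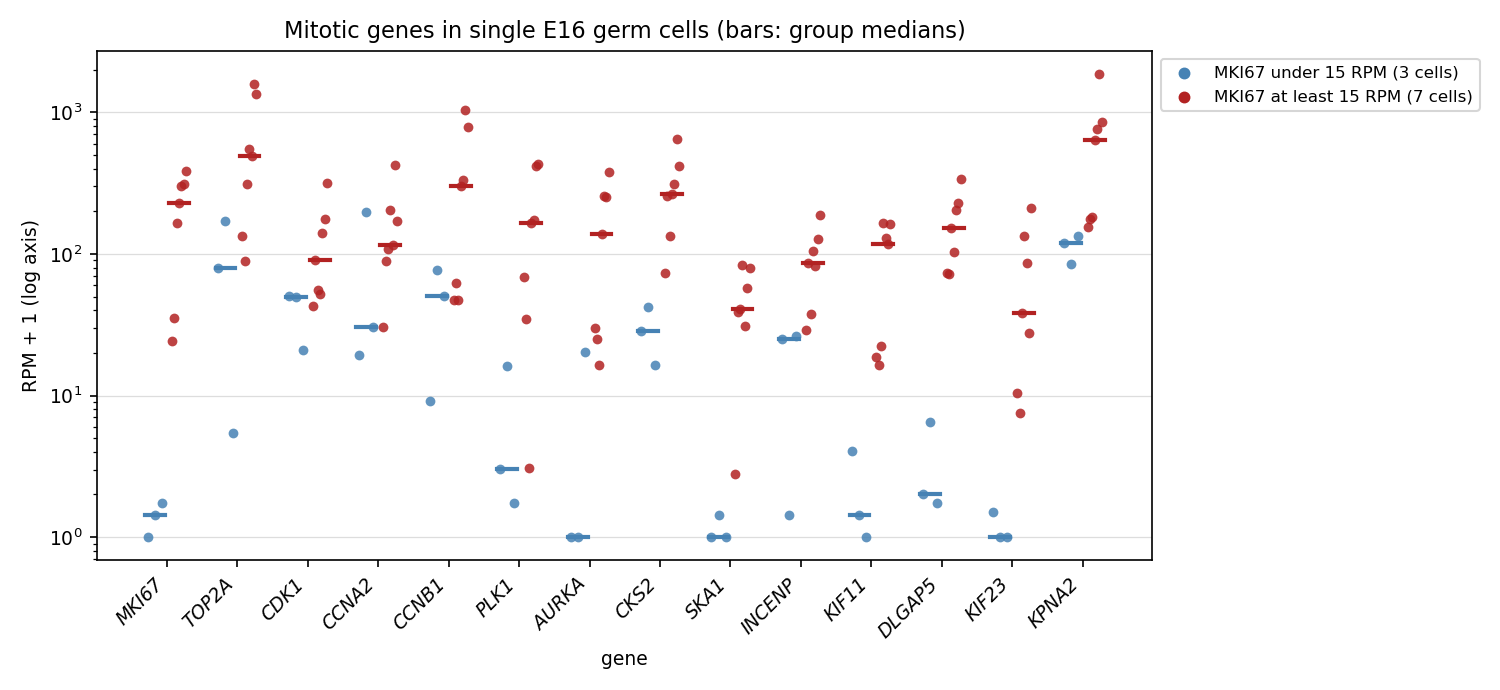
RPM + 1 on a log axis for 14 cell cycle genes in each of the 3 MKI67-low cells (blue) and 7 MKI67-high cells (red), with bars at the group medians. MKI67, CKS2, SKA1, INCENP, KIF11, DLGAP5, KIF23 and KPNA2 have every red point above every blue one, while CCNA2, CCNB1, CDK1, TOP2A, PLK1 and AURKA overlap.

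Kinetochores, the protein plates that tie chromosomes to spindle fibres, accounted for 7 of the genes without overlap among 27 measured, and 17 of the 27 were at least 2-fold higher (median 2.07). The NDC80 complex subunit SPC25 was at 0.737, 1.02 and 4.23 RPM in the low cells and at 37.4 to 352 RPM (median 107) in the high cells, a difference of 5.43. CASC5, the scaffold also called KNL1 that recruits checkpoint proteins, was at 0, 0 and 10.1 RPM against 31.6 to 190 RPM (median 71.8, difference 5.02). Neither gene had a high cell within the range of the low cells.

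SKA1, part of the complex that holds kinetochores to microtubule ends, was at 0, 0 and 0.423 RPM in the low cells (1 read in all) and at 1.78 to 82.9 RPM in the high cells (median 39.8, difference 4.91). Cell 11 was the 1 high cell under 15 RPM. CENPW, a centromere protein, had a difference of 2.94, with low cells at 1.11, 35.7 and 71.4 RPM and high cells at 81.0 to 297 RPM (median 130). INCENP, the scaffold of the chromosomal passenger complex, was at 25.4, 24.0 and 0.423 RPM against 28.0 to 189 RPM (median 85, difference 3.02). For both genes the highest low cell and the lowest high cell lay close together. The difference was 1.4 for CENPW without cell 1 and 1.62 for INCENP without cell 7.

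Of 25 spindle genes, 22 were at least 2-fold higher, none was 2-fold lower, and 7 had no overlap (median 1.98). DLGAP5 (HURP), which stabilises spindle fibres, was at 0.737, 1.02 and 5.49 RPM in the low cells and at 70.6 to 339 RPM (median 151) in the high cells. With a difference of 5.67 it was the widest of the spindle genes. KIF11, the motor that pushes the spindle poles apart, was at 0, 3.06 and 0.423 RPM against 15.3 to 163 RPM (median 116, difference 5.06). Cells 3, 4, 5 and 9 held at least 116 RPM of KIF11, and cells 6, 10 and 11 at most 21.2 RPM.

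KPNA2, an importin that regulates spindle factors, and TUBA1C, an alpha tubulin, were abundant in both groups. KPNA2 was at 132, 119 and 83.2 RPM in the low cells and 153 to 1868 RPM (median 639) in the high cells, with a difference of 2.04. TUBA1C was at 99.5, 200 and 254 RPM against 264 to 941 RPM (median 472, difference 1.60). Both genes had no overlap, but the closest high cell, 11 for KPNA2 and 10 for TUBA1C, lay just above the highest low cell.

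Cytokinesis genes had 11 of 13 members at least 2-fold higher (median 2.46). KIF23, a motor of the central spindle, was at 0, 0.51 and 0 RPM in the low cells (1 read in all) and at 6.51 to 210 RPM in the high cells (median 37.2, difference 5.17). PRC1, which bundles the microtubules between the parting chromosomes, was at 0, 15.8 and 3.80 RPM against 5.34 to 322 RPM (median 168, difference 4.66). PRC1 overlapped through cell 11 alone. ARHGAP11A, a regulator of RhoA at the cleavage furrow, differed by 4.75 with no overlap.

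Among 19 genes of condensin, cohesin and chromosome structure, 13 were at least 2-fold higher and STAG2 was lower by a difference of −1.05 (median 1.28). TOP2A, the topoisomerase that untangles sister chromosomes, was at 4.42, 78.1 and 169 RPM in the low cells and at 87.8 to 1584 RPM (median 488) in the high cells. Its mean was 642 ± 589 RPM (SD, n = 7) against 84.0 ± 82.7 RPM (SD, n = 3), a difference of 3.31. Low cell 7 held more TOP2A than high cells 10 and 11, so a division by TOP2A would not match that by MKI67. Without low cell 1 the difference of TOP2A was 1.84. The condensin subunit NCAPG behaved alike: 0.368, 0.51 and 107 RPM in low cells 1, 2 and 7 against 65.5 to 308 RPM (median 156, difference 4.67). SMC4, the condensin ATPase, was expressed in every cell, at 91.4, 132 and 270 RPM against 159 to 564 RPM (median 352, difference 1.24).

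The anaphase-promoting complex is the ubiquitin ligase that ends mitosis. Over 18 genes of the complex and of mitotic exit the median was 0.78 and 7 were at least 2-fold higher. UBE2C, its ubiquitin-conjugating enzyme, was at 1.47, 21.4 and 0.845 RPM in the low cells and at 6.67 to 330 RPM (median 124) in the high cells, a difference of 4.25. PTTG1 (securin), a substrate of the complex, was at 71.8, 92.4 and 9.30 RPM against 64.1 to 439 RPM (median 323, difference 2.33). Both overlapped through 1 high cell, cell 11 for UBE2C and cell 6 for PTTG1, and without low cell 7 the difference of PTTG1 was 1.33. The activator CDC20 differed by 0.76, and its highest values, 118 to 291 RPM, were in cells 3, 4 and 5.

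Replication genes showed smaller differences. Of 60 measured genes for licensing, DNA synthesis and nucleotide supply, 15 (25%) were at least 2-fold higher, 5 lower and 40 within 2-fold, beside 20.7% and 15.7% over all genes. The median was 0.27. It rested on single low cells: leaving out cell 1 gave 0.09 for the licensing list (0.44 with all cells) and −0.14 for DNA synthesis and nucleotide supply (0.14), and leaving out cell 7 gave 0.97 and 0.44. The 6 subunits of the MCM2 to MCM7 helicase had a median of −0.32, with MCM6 2-fold lower and the other 5 within 2-fold. PCNA, the sliding clamp of DNA polymerase, was at 223, 175 and 549 RPM in the low cells and at 95.6 to 687 RPM (median 336) in the high cells, a difference of 0.03.

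MCM6 was at 460, 340 and 791 RPM in low cells 1, 2 and 7. In the high cells it was at 20.5 RPM in cell 5, 33.1 RPM in cell 4 and 365 to 594 RPM in the other 5, for a difference of −1.31, or −0.77 without cell 5. The 2 high cells with little MCM6 were those with the most CCNB1 and TOP2A. MCM2 showed a like order, with 595 RPM in low cell 7 and 71.2 to 297 RPM in the high cells (difference −0.49).

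Some replication genes did stand apart. GINS1, a subunit of the replicative helicase's GINS complex, was at 25.1, 0.51 and 7.61 RPM in the low cells and at 34.2 to 138 RPM (median 53.7) in the high cells. It was the 1 replication gene without overlap (difference 3.17, and 2.07 without cell 2). RRM2, the regulated subunit of ribonucleotide reductase, was at 2.58, 1.02 and 107 RPM in low cells 1, 2 and 7 against 14.7 to 172 RPM (median 65.8, difference 2.56). The difference was 4.33 without cell 7, which lay among the high cells, and 1.46 without cell 2. For TYMS (thymidylate synthase), at 12.5, 16.8 and 187 RPM against 1.65 to 127 RPM (difference 0.38), low cell 7 lay above every high cell.

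On the other side, CDC7, the kinase that fires replication origins, was lower by −2.06. KIAA0101, a PCNA-binding factor, was at 50.8, 19.4 and 63.4 RPM in the low cells. In the high cells it was at 59.6 RPM in cell 3 and at most 6.97 RPM in the other 6 (difference −3.63).

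The cells of each group were not alike. The mean of log2(RPM + 1) over the 109 mitotic genes was 3.58 in cell 1, 4.10 in cell 2 and 4.83 in cell 7. In the high cells it was 4.71 in cell 11, 5.52 in cell 10, 6.10 in cell 6, 6.60 in cell 3, 6.78 in cell 9, 7.19 in cell 5 and 7.22 in cell 4. The groups overlapped by 1 pair of cells: low cell 7 stood above high cell 11. Of the 109 genes, 90 in cell 4 and 88 in cell 5 exceeded every low cell, against 44 in cell 10 and 35 in cell 11. Of the 315 genes outside the cell cycle, 83, 86, 82 and 106 did so in cells 4, 5, 10 and 11. The share of mitotic genes in cell 11 was thus no larger than its share of other genes.

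The mean over the 60 replication genes was 4.43 and 4.38 in low cells 1 and 2 and 5.41 in low cell 7. It was highest in high cell 10, at 5.83, and lowest in high cell 5, at 4.37, next to cell 4 at 4.70 and cell 11 at 4.72. Low cell 7 therefore held replication transcripts at the level of the high cells, and 14 of the 60 genes were above every high cell there. Of the 315 genes outside the cell cycle, 48 were also above every high cell in cell 7. HELLS, a chromatin remodeller tied to DNA replication, was at 647 RPM in cell 7 and at 121 to 253 RPM in the high cells. Cells 4 and 5 joined the highest mitotic means with replication means near the low end, and cells 1 and 2 were low in both.

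**Figure D3:**
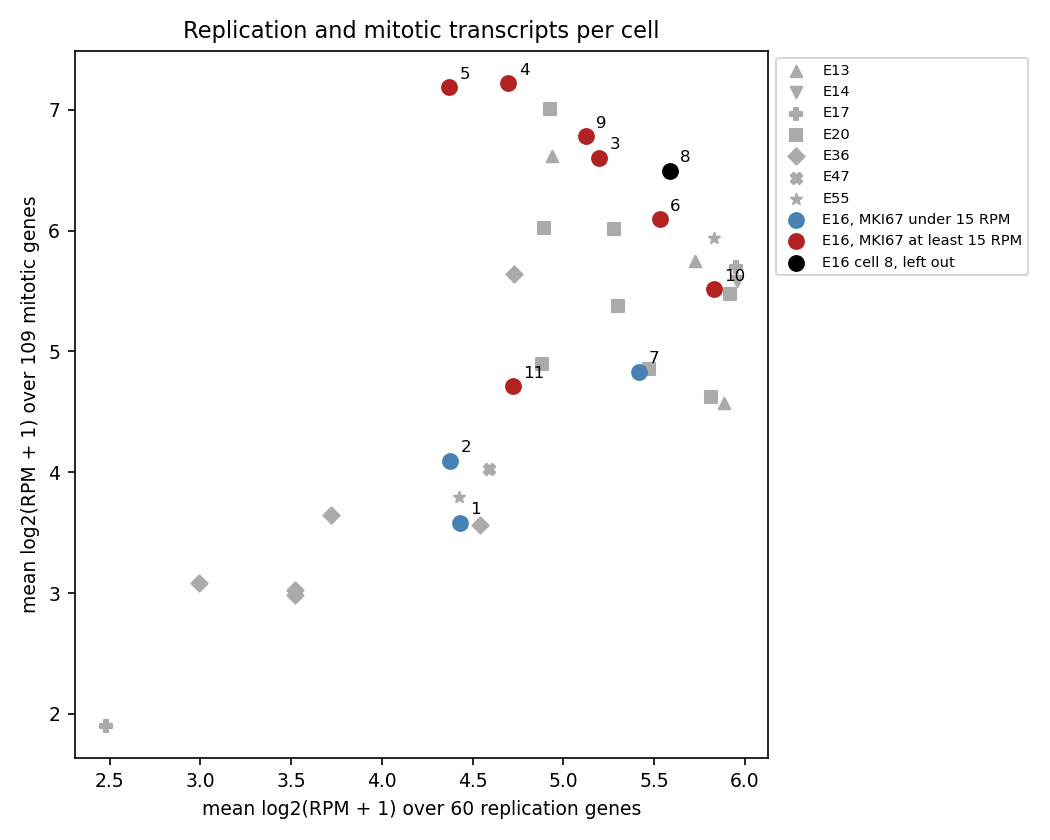
Mean log2(RPM + 1) over 60 replication genes (horizontal) and over 109 mitotic genes (vertical) in each cell, with the E16 germ cells numbered and cells of other stages in grey. Cells 4 and 5 lie at 7.22 and 7.19 on the vertical axis, cells 1 and 2 lie low on both axes, and MKI67-low cell 7 lies to the right of them at 5.41 on the horizontal axis.

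The regulators of G1 did not stand together. The 17 measured G1 cyclins, CDKs and pocket proteins had a median of −0.06, with 5 at least 2-fold higher and 2 lower. CCND2 (cyclin D2) was at 91.4, 78.6 and 253 RPM in the low cells and at 0 RPM in cell 6 and 71.1 to 326 RPM in the other high cells (difference −0.87). E2F4, a partner of the pocket proteins, was at 0.737, 6.63 and 57.5 RPM against 17.6 to 121 RPM (median 71.6, difference 2.85, and 1.65 without cell 1). CCNE1 (cyclin E1) was at or under 1.27 RPM in the 3 low cells and above 15 RPM in cells 3, 10 and 11 alone, at 15.5, 60.9 and 20.9 RPM (difference 1.60, and 1.03 without cell 10). With cells 10 and 11 moved to the low side, at a threshold of 50 RPM of MKI67, the difference of CCNE1 turned to −1.16.

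As a list, genes for CDK inhibition and growth arrest were not higher in the MKI67-low cells. Of the 20 genes listed, 15 were measured. Of these, 6 were at least 2-fold higher in the MKI67-high cells and 1, KLF4, was lower. The median was 0.71, or 0.98 with genes at 0 in a group set to their bound. CDKN1B (p27), which blocks cyclin E and cyclin A complexes, was at 0.368, 12.2 and 15.6 RPM in the low cells and at 5.34 to 191 RPM (median 71.9) in the high cells, a difference of 3.23. The 1 high cell in the range of the low cells was cell 11, and without low cell 1 the difference was 2.09. CDKN3, a phosphatase of CDK1 and CDK2 whose transcript is cell cycle regulated, was at 0.368, 0 and 0.423 RPM in the low cells and at 0 RPM in cell 6 and 31.6 to 394 RPM in the other high cells (difference 5.41). The median of this list depended on low values: it was 0.20 with a pseudocount of 10 RPM, and 0.15 at a threshold of 50 RPM.

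Genes of the DNA damage response were divided. Of 26 measured genes in this list, 11 were at least 2-fold higher in the MKI67-high cells and 5 lower (median 0.30). CHEK1, the checkpoint kinase that guards stalled replication forks, was at 0, 66.3 and 38.9 RPM in the low cells and at 77.8 to 254 RPM (median 147) in the high cells. It did not overlap, with a difference of 3.23. BRCA1, a factor of homologous repair, differed by 3.03 and overlapped, because low cell 7 held 82.8 RPM. Without low cell 1, which held the least of both, the differences were 1.33 for CHEK1 and 1.82 for BRCA1.

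The germ cell and pluripotency genes were at similar levels in both groups for most members. Of 29 measured genes in the union of the 2 lists, 23 were within 2-fold, 3 were higher (DPPA5, DPPA2 and TDGF1) and 3 lower (DPPA3, GDF3 and KLF4), and none separated the groups. The median difference was −0.10 for germ cell specification (16 genes) and −0.10 for core pluripotency (14 genes). With 3 low cells, these values describe the cells at hand and do not show that the groups express these genes alike.

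SOX17, the factor at the top of the primate germ cell programme, was at 508, 362 and 566 RPM in the low cells and at 381 to 1610 RPM (median 773) in the high cells. Its difference was 0.81, and the 3 highest values, 1154 to 1610 RPM, were in cells 3, 4 and 5. TFAP2C was at 730, 574 and 360 RPM against 266 to 869 RPM (median 448, difference −0.27). PRDM1 (BLIMP1), the repressor of somatic genes, was at 426, 201 and 26.6 RPM against 90.6 to 263 RPM (median 152, difference 0.23). Low cell 7 held the least of it, and the difference was −0.91 without cell 7 and 1.07 without cell 1.

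The pluripotency factor NANOG was at 2127, 1042 and 1265 RPM in the low cells and at 625 to 2193 RPM (median 983) in the high cells, a difference of −0.37. POU5F1 (OCT4) was at 4686, 5088 and 3793 RPM against 2444 to 5473 RPM (median 3842, difference −0.23). The groups overlapped widely for both. The receptor KIT, which migrating germ cells need, differed by 0.51 and SALL4 by 0.39.

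DPPA3 (STELLA), a chromatin factor of germ cells that protects methylation in the early embryo, had the widest difference of the 29, though its groups overlapped. It was at 89.9, 93.4 and 18.2 RPM in the low cells. Among the high cells it was at 59.6 RPM in cell 3 and 54.8 RPM in cell 6 and at or under 0.827 RPM in the other 5, a difference of −3.77. The high cells thus fell into those with and those without DPPA3. GDF3, a TGF-beta family ligand, was at 308, 60.2 and 124 RPM against 0 to 602 RPM (median 26.3, difference −2.14), with cells 3 and 6 again highest among the high cells. At a threshold of 50 RPM of MKI67 the difference of GDF3 was 1.39, in the opposite direction, and it was −1.32 without cell 10.

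**Figure D4:**
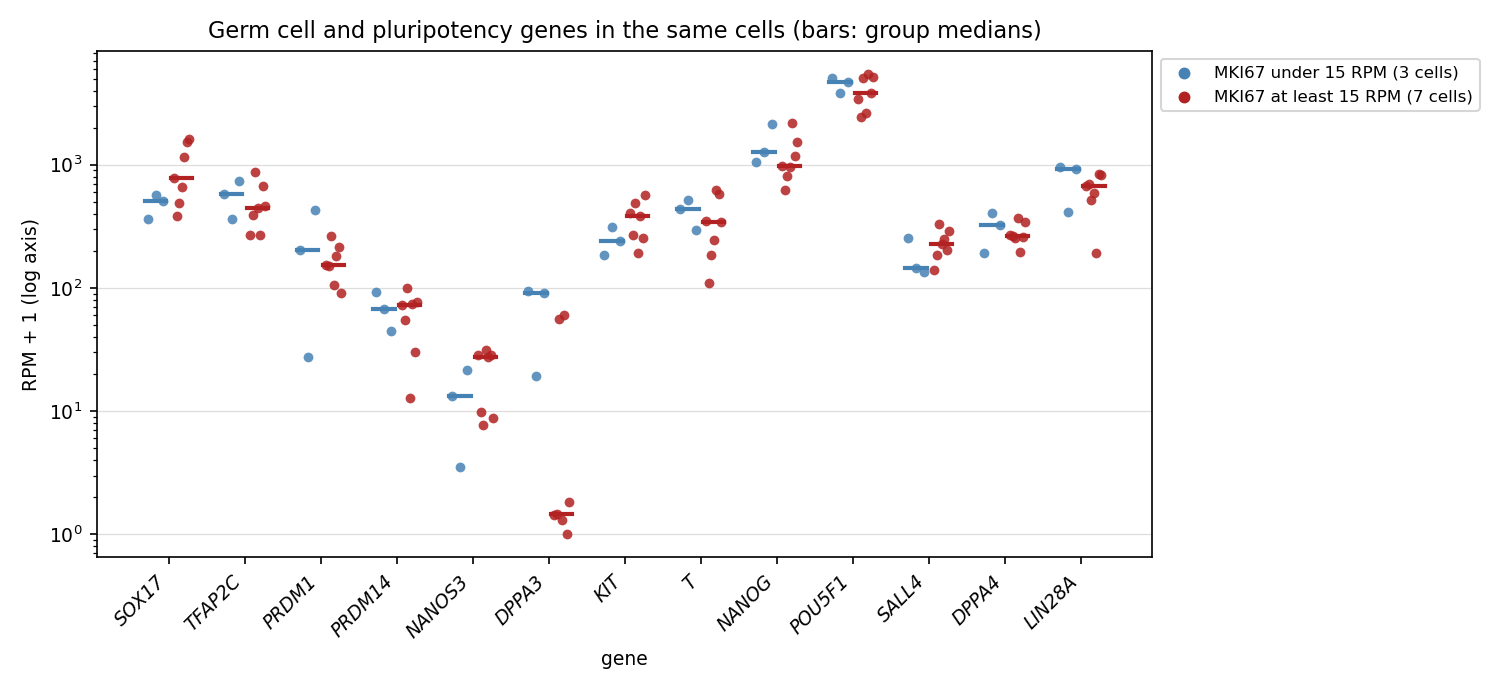
RPM + 1 on a log axis for 13 germ cell and pluripotency genes in each MKI67-low (blue, 3 cells) and MKI67-high (red, 7 cells) cell, with bars at the group medians. Blue and red points interleave for SOX17, TFAP2C, PRDM1, NANOG and POU5F1, and DPPA3 is split within the red group, with 2 cells at 54.8 and 59.6 RPM and 5 near 0.

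DNA methylation genes differed in both directions. Of 14 measured, 5 were at least 2-fold higher and 2 lower (median −0.22). DNMT1, which copies methylation onto new DNA strands, was at 0.368, 92.4 and 17.3 RPM in the low cells and at 26.9 to 218 RPM (median 85.5) in the high cells. Its difference of 2.76 was 1.12 without cell 1 and 4.16 without cell 2. TET1, an enzyme that oxidises methylcytosine, was at 111, 91.3 and 98.0 RPM against 1.24 to 164 RPM (median 31.0, difference −2.04). The 3 low cells lay close together for TET1, and the high cells spread on both sides of them.

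DNMT3L, a cofactor of de novo methylation, was at 74.1, 52.0 and 36.3 RPM in the low cells and at 0 RPM in cells 4, 5 and 6, with a difference of −3.19. High cells 3, 9 and 10 held 82.4, 46.5 and 28.3 RPM of it and cell 11 held 0.89 RPM. SUV39H1, a histone H3 lysine methyltransferase of heterochromatin, was at 0.368, 0 and 0.423 RPM in the low cells and at 1.39 to 75.1 RPM in the high cells (median 9, difference 3.37). It was the 1 gene of 23 histone and arginine methylation genes without overlap, and 3 of the 7 high cells reached 15 RPM.

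Lists for growth and metabolism gave small medians. The 48 cytosolic ribosomal proteins had a median of −0.09 with all 48 within 2-fold. Oxidative phosphorylation had 0.15 over 28 genes, glycolysis 0.20 over 18 and MYC and growth signalling 0.10 over 20. The WNT and BMP response list stood at 0.75 over 15 genes, with 5 at least 2-fold higher and 2 lower. Its ID2 and ID4, inhibitors of basic helix-loop-helix factors, differed by 2.24 and 3.43, and BAMBI, a pseudoreceptor that dampens BMP signals, by 1.63. For ID2 the value was 0.53 without cell 2 and 3.96 without cell 7, and for BAMBI 1.07 without cell 7.

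Markers of other cell types were present unevenly. The defining endoderm apolipoproteins were near 0 in the members, apart from APOB in cell 10. Some other markers, among them the endoderm marker GATA4, reached levels near or above those of cell 8 in single members. GATA4 was at 214 RPM in cell 11 (234 RPM in cell 8). TTR, also an endoderm marker, stayed far below its 3099 RPM in cell 8. It was at 41.4 and 20 RPM in high cells 10 and 11 and at most 1.65 RPM in the other members. COL1A1 was at 141 RPM in low cell 2 and 102 RPM in high cell 3 (32.7 RPM in cell 8), and the VEGF receptor KDR at 141 RPM in low cell 7 and 117 RPM in high cell 3 (85 RPM in cell 8). The amnion factor ISL1 was at 18.4 and 37.2 RPM in low cells 1 and 2 and at 0 in the other 8, and GATA3 reached 136 RPM in low cell 7 and 116 RPM in high cell 6.

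The summed endoderm markers were at 18.3 to 237 RPM in the high cells and 76.5 to 92.8 RPM in the low cells, against 5816 RPM in cell 8. APOA2 was at 0 in every member, and 5 of the 8 endoderm markers were under 15 RPM in all 7 high cells and 7 of 8 in all 3 low cells. Amnion markers summed to 7.31 to 156 RPM in the high cells and 26.5 to 136 RPM in the low cells, GABRP being at 0 in all. Trophoblast markers summed to 3.72 to 49.7 RPM and 28.3 to 77.0 RPM, and blood and endothelium markers to 5.58 to 118 RPM and 31.1 to 142 RPM. The blood and endothelium sum held 5 of 7 listed markers and left out PECAM1 and HBZ, which carry no human symbol in the data. In these lists ELF5, TAL1, GATA1 and HBE1 were at 0 in every member. Mesoderm markers summed to 489 to 2641 RPM and 774 to 2898 RPM, of which VIM gave 450 to 2873 RPM over the 10 cells. The part of such transcripts in the differences above was not tested.

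The genes with the widest differences were taken among those with a symbol whose higher group averaged 50 RPM or more and reached 15 RPM in 80% or more of its cells. The 12 highest were MKI67, CDCA3, DLGAP5, SPC25, CDKN3, C4orf46, KIF20A, KIF11, CASC5, AURKA, ARHGAP11A and NCAPG, with differences from 6.72 down to 4.67. Of these 9 belong to the cell cycle lists. They were chosen for the width of their differences, and MKI67 defined the groups, so their separation is a description only. CDCA3, an adaptor that helps degrade the mitosis inhibitor WEE1, had 0 reads in the 3 low cells and 2336 reads in the high cells, at least 307-fold higher when the low group is set to 3 reads, a bound for counting error only. It was also at 0 in high cell 11. KIF20A, a motor of the central spindle, was at 0.368, 0.51 and 0 RPM against 16 to 124 RPM (median 32.9, difference 5.16).

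The 12 lowest, none of which is in a cell cycle list, were DNAH8, CORO2A, CHST15, MFAP3, ASRGL1, TPTE2, LEPREL1, MBLAC2, FBLIM1, PCDH17, C16orf59 and C7orf60. Their differences ran from −4.94 to −3.78, which likewise chose them. DNAH8, a dynein heavy chain of sperm tails, was at 29.1, 133 and 80.7 RPM in the low cells and at 0 to 11.4 RPM (median 0) in the high cells. CHST15, a sulfotransferase of chondroitin sulfate, was at 140, 64.3 and 90.4 RPM against 0 to 28.0 RPM (median 0, difference −4.72). Both genes were at 0 in 4 of the 7 high cells.

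FBLIM1 (migfilin), an adaptor of cell adhesions, was the most abundant of the 12, at 539, 152 and 438 RPM in the low cells and 0.517 to 162 RPM (median 34.4) in the high cells. Its difference was −3.93 and it overlapped through cell 9. PCDH17, a protocadherin, was at 36.8, 26 and 95.5 RPM against 0 to 16.1 RPM (median 2.53, difference −3.89). No high cell reached the low cells for PCDH17.

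**Figure D5:**
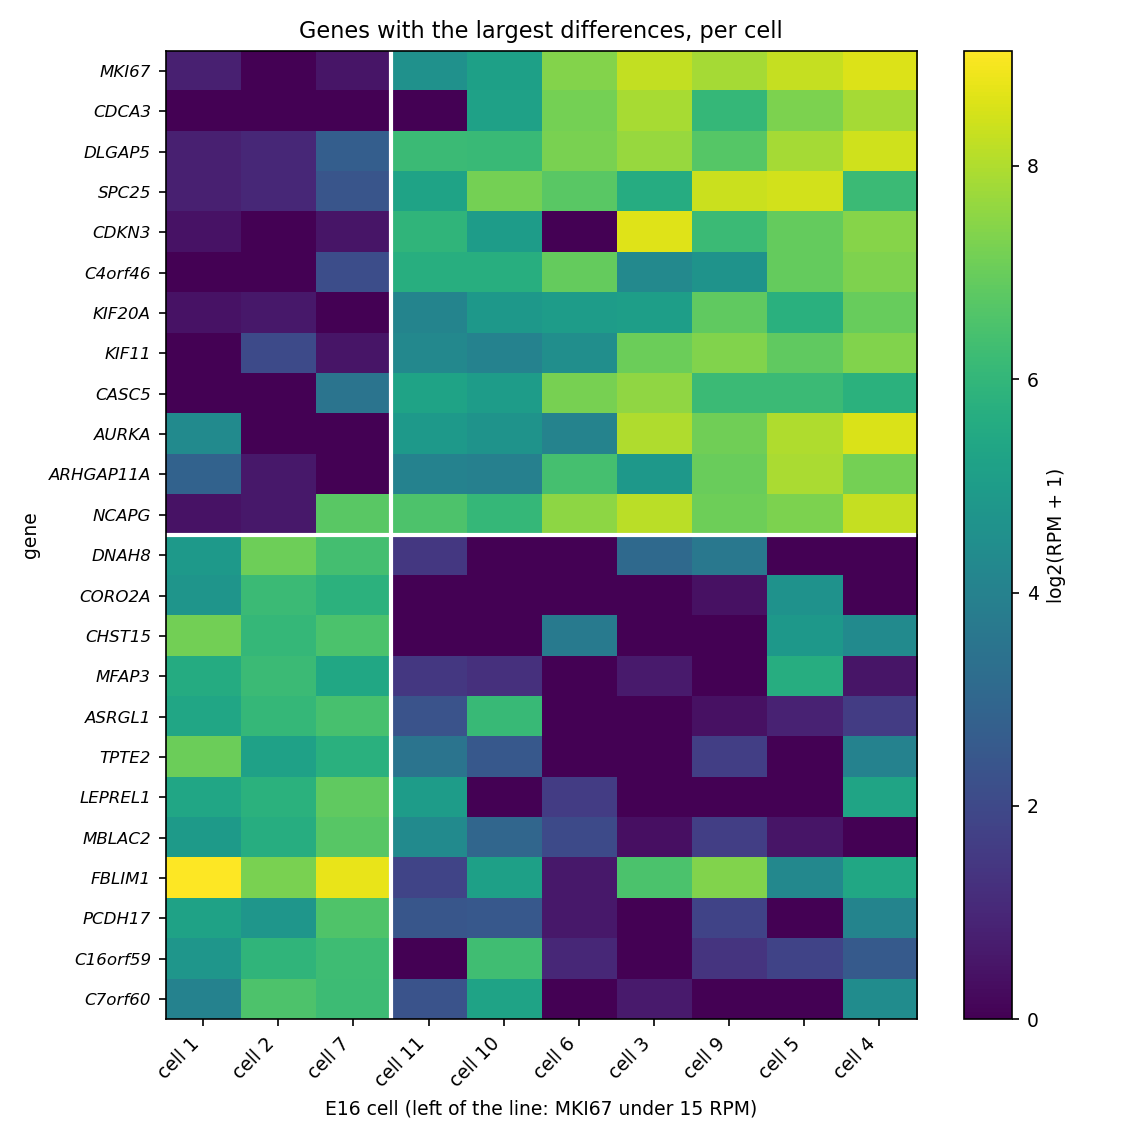
log2(RPM + 1) (colour) of the 12 genes at the upper and the 12 at the lower extreme of the differences (rows) in each E16 germ cell (columns), with the 3 MKI67-low cells left of the white line. Among the upper genes the groups overlap for CDCA3 (0 in cell 11), CDKN3 (0 in cell 6), NCAPG (107 RPM in low cell 7) and AURKA (19.2 RPM in low cell 1).

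The same division was made among the cells of other stages, which did not enter the choice of the 12 upper and 12 lower genes. The gene lists were chosen with earlier results of these data known. These cells too were split by MKI67, so genes that vary together with it differ there by construction. Stage, cell type and label code differ there, so values stand side by side. Among the 9 gonad cells, 2 held at least 15 RPM of MKI67 (E36 cell 5 and E55 cell 2), and 34.9% of 13841 measured genes were at least 2-fold higher in them and 11.3% lower. The mitotic genes had a median of 2.41 there, with 85 of 108 at least 2-fold higher. Among the 14 embryo cells of other stages, 12 were MKI67-high and 2 low, 37.7% of 14377 genes were at least 2-fold higher in the former, and the mitotic genes had a median of 2.45, with 81 of 108 higher. The 2 low cells there were unlike: the mean over the mitotic genes of E16 was 1.90 in E17 cell 1 and 4.85 in E20 cell 8, which lay above MKI67-high E20 cell 7 (4.62) and E13 cell 2 (4.58).

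Replication genes had medians of 1.05 in the gonad cells and 1.74 in the other embryo cells, beside 0.27 at E16, with 33 and 37 of 60 at least 2-fold higher. The medians of all measured genes were 0.41 and 0.59, beside 0.12 at E16. Of the 11 upper genes other than MKI67, 11 were at least 2-fold higher in the gonad cells and 9 in the other embryo cells. In the latter C4orf46 and AURKA were lower, by −1.25 and −0.76. Of the 12 lower genes, 5 were at least 2-fold lower and 5 at least 2-fold higher in the gonad cells (median −0.41), and their median was 0.01 in the other embryo cells. PCDH17 was lower in the gonad cells, at −2.53, and not in the other embryo cells, at 0.86. C16orf59 went the opposite way from E16 in both, at 2.36 and 5.85.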

How the data were processed

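SC3-seq libraries of single cells were sequenced by the submitters on the SOLiD System, per the labels' protocols. The authors deposited 1 table of log2(RPM + 1) values for 28551 genes, 17683 of them with a human symbol, in 34 cells. cutadapt 1.3, TopHat 1.4.1 and Cufflinks 2.2.0 are named, without their roles, in the submitters' processing notes, and the genome build is not given in the sources used here. Values were turned back to RPM. The reads of each cell were recovered from the step between its low values, 99.7% to 100.0% of which came out as whole reads (within 0.1 read). All 34 columns were mapped to their cells by title, and cells of a stage were numbered in accession order.

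Germ cells of E16 were those under 100 RPM of APOA1, divided at 15 RPM of MKI67. Groups were compared by means of log2(RPM + 1) (pseudocount 1 RPM), over genes that averaged 1 RPM or more in a group. No test was run, since no animal is named and the cells of a stage count as 1 sample. The functions that compute differences were tested on simulated data. The genes named were those of the cell cycle, DNA damage, germ cell, pluripotency and DNA methylation lists, 2 to 4 members of the other lists, XIST, and the 12 genes at either extreme of the differences, under the rule given in the text. The members and the gene lists were chosen with earlier results of these data known. Alternatives changed the pseudocount, the averaging, the scaling (median-of-ratios size factors), the filter, the threshold, the gene that divides the cells and the cells included. Promoter sequences were not analysed here. Computations used Python 3.11.15, numpy 2.4.6, pandas 2.3.3, scipy 1.17.1 and matplotlib 3.10.9.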

Additional observations from a re-analysis of the deposited data

Results flagged for a closer look

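In the 7 MKI67-high cells, 120 values (list means and single genes) were screened for 1 cell far from the others by Dixon's 95% criterion. Of these, 15 were set apart. The nominal rate of about 1 in 20 assumes independent, normally distributed values. Many values here vary together or have a floor at 0, and the 12 upper and 12 lower genes were chosen from these same cells. The 15 are therefore a description only. The group of 3 MKI67-low cells was too small to screen. All values here are log2(RPM + 1).

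Cell 11 stood below the other MKI67-high cells for 4 genes. CDCA3 was at 0 there with the next cell at 5.18. SKA1, of the kinetochore, was at 1.47 with the next at 4.95. PRC1, of the central spindle, was at 2.66 with the next at 6.52, and BRCA1 was at 4.94 with the next at 6.27. Cell 11 also held the least MKI67 and the lowest mitotic mean of the group.

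Cell 6 stood below the others for the phosphatase gene CDKN3, at 0 (next 5.03), for cyclin D2 (CCND2), at 0 (next 6.17), and for the mean over glycolysis genes, at 4.90 (next 5.55). In cell 4, TYMS was at 1.41 (next 5.03) and the mean over G1 cyclins, CDKs and pocket proteins at 3.67 (next 4.26). In cell 10 the mean over blood and endothelium genes was 3.29 (next 4.20), and XIST was at 0.36 in cell 3 (next 5.37).

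Of the genes lower with MKI67, 4 stood in 1 MKI67-high cell far above their level in the rest of that group. CORO2A was at 4.63 and MFAP3 at 5.66 in cell 5, where the next cells were at 0.40 and 1.47. ASRGL1 was at 6.12 and C16orf59 at 6.29 in cell 10, where the next cells were at 2.32 and 2.58.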

How the results depend on the processing

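Results were recomputed under 21 other settings. Of the 12 list medians and 4 counts followed, 7 medians moved in every setting by less than 1 pooled SD of the list means of single cells. Within that limit the licensing median still ran from 0.02 to 0.97, and that of DNA synthesis and nucleotide supply from −0.14 to 0.44. The other 5 medians moved further in at least 1 setting, and all 4 counts also moved, judged by their ratio to the main count. By level, 4 of the 5 mitotic lists kept medians above 1 throughout: 1.21 to 2.75 for mitotic entry, 1.04 to 2.64 for kinetochores, 1.43 to 2.54 for spindle and 1.62 to 3.24 for cytokinesis. Chromosome structure ran from 0.89 to 1.73. With a pseudocount of 10 RPM, 934 genes were at least 2-fold higher and 641 lower, and the medians of mitotic entry and CDK inhibitors were 1.21 and 0.20. The log2 ratio of mean RPM gave 1.54 for mitotic entry. A filter at 15 RPM left 1880 genes higher and a median of 0.21 for CDK inhibitors. A threshold of 50 RPM, which sets 5 cells against 5, left 64 genes lower without overlap and gave 0.15 for CDK inhibitors. Including cell 8 gave 83 and 1.19. Dividing by TOP2A, which leaves cell 1 alone against 9, gave 3494 genes lower, 861 higher and 1711 lower without overlap, and medians of 1.04 for kinetochores, 0.15 for the anaphase-promoting complex and −0.78 for G1 cyclins. Leaving out 1 cell at a time gave 182 to 482 genes higher and 165 to 501 lower without overlap, since fewer cells must then separate: 482 and 501 without cell 1, 432 and 437 without cell 2, 394 and 464 without cell 7, and 237 higher without cell 6. The G1 cyclin median then ran from −0.16 to 0.52, the latter without cell 1. Without cells 10 and 11, chosen after seeing the data, 310 genes were higher and 249 lower without overlap. For the settings that changed averaging, filter or threshold the cause was not tested. Of 88 genes, 73 were at least 2-fold different and 6 of these changed sign: at 50 RPM CCNE1 (−1.16), GDF3 (1.39), PIWIL4 (−1.42) and CDC6 (−0.56), by TOP2A DPPA5 (−3.31) and TDGF1 (−0.44), and TDGF1 also by medians (−0.29) and when 1 cell was left out (−0.528 to 2.205, the lower without cell 7). A division by CDK1 was not run, as no cell was under 15 RPM. No paired analysis was possible because cells are numbered in accession order only. Depth limits genes at a few reads per cell, and 3 MKI67-low cells limit every difference.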

Other observations

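Genes of later germ cell development were spread unevenly over the E16 germ cells. PIWIL4, a piRNA-binding protein of fetal germ cells, had 0 reads in the 3 MKI67-low cells and in cells 3, 4 and 5, was at 1.03 RPM in cell 6, and stood at 60.7 RPM in cell 9, 114 RPM in cell 10 and 149 RPM in cell 11. The 2 cells with the most PIWIL4 were the MKI67-high cells with the least MKI67. Over 14 measured late germ cell and piRNA genes, 4 were at least 2-fold higher in the MKI67-high cells and 3 lower (median 0.47, beside 0.12 over all genes). MAEL, a piRNA pathway factor, was at 95.4, 0.51 and 30.8 RPM in low cells 1, 2 and 7 and at 0 to 18.3 RPM in the high cells (difference −2.41, or −1.15 without cell 1 and −4.15 without cell 2). Of 10 measured meiotic chromosome genes, 3 were at least 2-fold higher and 3 lower (median 0.55). REC8, the meiotic cohesin, was at 97.3, 21.9 and 54.1 RPM in the low cells and at 0 to 59.8 RPM in the high cells, with a difference of −2.39 and overlap through cells 9 and 10.

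Over 18 measured stress and apoptosis genes, 4 were at least 2-fold higher and 3 lower. XIST, the RNA of X inactivation, was at 163, 425 and 30.8 RPM in the low cells and at 0.281 to 231 RPM in the high cells, so that 1 of the 10 cells, cell 3, was near 0.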
